A study of Mus musculus with 18 samples.

Results

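The account below follows 10 genes of the YAP and TAZ branch of Hippo signalling in mouse pancreatic cancer cells: the coactivator genes Yap1 and Wwtr1 (which encodes TAZ), the DNA-binding partner gene Tead1, and 7 genes known as targets of the complex, Ctgf, Cyr61, Ankrd1, Nt5e, Axl, Amotl2 and Lats2. The genes were taken by symbol from a list drawn up with earlier results of these data known, so their counts below are a description, and each symbol was found once among the 24527 entries of the count table. All 10 passed the low-count filter, which kept 13827 genes for testing. RNA-seq was run on PD454, PD7591 and PD883, 3 mouse lines of pancreatic ductal adenocarcinoma labelled as of mixed strain background. Each line was kept for 48 h with DMSO (the vehicle), with 2.5 µM ionomycin, an ionophore that lets calcium into cells, or with TGFb at 10 ng/ml, a cytokine under which many carcinoma cells take on mesenchymal traits. Line and treatment gave 9 groups of 2 libraries, so each treatment had 6 libraries and the series 18. Every group, the DMSO controls included, grew in a medium that contained dexamethasone, cholera toxin, insulin, bovine pituitary extract and triiodothyronine, so all effects were measured on top of these. The labels do not say whether the 2 libraries of a group came from separate cultures, so p-values measure the spread between these libraries and lines, which may be technical in part.

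YAP and TAZ are transcriptional coactivators that bind no DNA of their own and act through the TEAD factors, which recognise a short sequence in enhancers and promoters. When the Hippo kinases are active, LATS kinases phosphorylate YAP and TAZ and hold them in the cytoplasm; when the kinases are quiet, for example on stiff matrix or at low cell density, the coactivators enter the nucleus. This control acts mostly on the proteins, which RNA-seq does not measure. In pancreatic cancer the pathway is known for its part in growth and in invasive behaviour, and several of its targets also respond to TGFb through SMAD factors or to other signals.

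The sequence that TEAD factors recognise was looked for first, since YAP and TAZ reach DNA through these factors. The window from 250 bases before to 50 bases after each annotated start was read from RefSeq (build GRCm38.p6, the same coordinates as mm10), and 8 of the 10 genes had a window there; Ctgf and Tead1 had none. The core GGAATG, searched on both strands, was found in 7 of these 8 genes, against 16.6% of the 27025 genes with a window. The genes with a match include Yap1 and Wwtr1, which are not among the targets. The targets were listed because they are known as such, so this share is a description. Whether these sites act in the cells was not tested. The 8 matches follow, each with 12 bases on either side, 5′ to 3′ on the strand that reads GGAATG, with the core in capitals.
Yap1 (chr9:8004720-8004749, minus strand): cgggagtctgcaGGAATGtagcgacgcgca
Wwtr1 (chr3:57576029-57576058, minus strand): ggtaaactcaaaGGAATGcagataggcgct
Cyr61 (chr3:145650071-145650100, plus strand): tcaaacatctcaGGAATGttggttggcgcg
Ankrd1, upstream (chr19:36120037-36120066, minus strand): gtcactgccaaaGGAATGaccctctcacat
Ankrd1, downstream (chr19:36119950-36119979, minus strand): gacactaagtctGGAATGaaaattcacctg
Axl (chr7:25788949-25788978, minus strand): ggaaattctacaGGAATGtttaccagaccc
Amotl2 (chr9:102717727-102717756, minus strand): gctgctatgccaGGAATGtgagagtttcag
Lats2 (chr14:57746102-57746131, minus strand): cgtgacgcccgtGGAATGccaacaatgtag

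The core of Cyr61 lay 103 bases before the RefSeq start, that of Amotl2 65 bases before, and both read on the strand opposite to the gene. In Ankrd1 the cores lay 210 and 123 bases before the start used by RefSeq, in Yap1 141, in Wwtr1 136 and in Axl 233. The core of Lats2 began at base 5 after the start. In GENCODE M21 the sites of Ankrd1, Amotl2 and Lats2 fell within untranslated exon sequence (UTR) of these genes, and those of Yap1, Wwtr1, Cyr61 and Axl lay outside the transcripts of their gene. The window of Nt5e held no GGAATG, although its RNA had the largest fold changes against DMSO of the 10 genes over the 3 lines, as given below. This window (chr9:88327359-88327658) lay downstream of the GENCODE M21 start of the gene (88327197, plus strand). The sequence before that start was not searched. A match of 6 letters is a description of the sequence and does not show binding. The same windows were searched on both strands for the cores TGANTCA (AP-1), GGAAAA (NFAT), GTCTAGAC (SMAD) and the CArG box of serum response factor. Cyr61 held GGAAAA at 2 positions and a second window of Lats2 held it at 1, against 26.1% of genes with a window. No other match was found in the members' windows. Over all genes with a window, 8.97% held the AP-1 core, 0.248% the SMAD core and 1.81% the CArG box. With shares this low, the lack of a match in so few genes says little. The 160 bases before the start of Cyr61 are shown as the wider context of a site outside any annotated transcript of its gene. They are written on the gene's strand, with the TEAD core, here as its reverse complement, in capitals.
Cyr61 (chr3:145649986-145650145, minus strand): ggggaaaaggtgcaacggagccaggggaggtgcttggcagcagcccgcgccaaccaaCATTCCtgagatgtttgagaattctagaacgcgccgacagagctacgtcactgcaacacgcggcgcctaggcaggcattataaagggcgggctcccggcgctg

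Library totals ran from 17591005 to 37894692 counts, and levels are given below as CPM, counts per 1000000 on TMM-scaled library sizes. The treatments showed in genes used to check the labels: the calcium pump gene Atp2a3 rose by 4.45 ± 0.30 (log2, SE) and the calcineurin feedback gene Rcan1 by 2.77 ± 0.30 with ionomycin, and the SMAD target Smad7 rose by 1.80 ± 0.29 with TGFb, each against DMSO. All 7 epithelial and ductal markers were found, with a summed level of 4864 to 7705 CPM with DMSO, 5327 to 9608 under ionomycin and 3963 to 6968 with TGFb. In the TGFb libraries 3 of them fell (Krt19 by 5.86, Cdh1 by 3.34 and Epcam by 1.07 on the log2 scale), 2 rose (Sox9 by 2.40 ± 0.33 and Krt18 by 0.29 ± 0.11), and Krt7 and Krt8 did not pass the test; with ionomycin Krt18 alone passed (0.39 ± 0.11). Of 4 acinar and 4 endocrine markers, 2 of each were at 0 in all 18 libraries, and the endocrine sum stayed at or under 0.300 CPM. The acinar sum was 0.0436 to 1.41 CPM with DMSO, 0.0538 to 1.10 under ionomycin and 2.11 to 6.18 with TGFb; its 1 tested gene, the elastase gene Cela1, rose by 3.19 ± 0.39 with TGFb. The summed level of 6 fibroblast markers was 2.02 to 5.82 CPM with DMSO, 1.51 to 4.19 under ionomycin and 6.97 to 101 with TGFb, that of 5 immune markers was 3.10 to 5.87, 8.31 to 29.2 and 2.54 to 3.55, and that of 4 endothelial markers stayed at or under 2.79. Most of the immune sum with ionomycin came from Cd68 (7.15 to 28.8 CPM), while the pan-leukocyte gene Ptprc was at or under 0.274 CPM in every library. The part of these markers in the results below was not tested. In 4 libraries, DMSO 14 and TGFb 18 of PD454 and DMSO 8 and TGFb 12 of PD883, levels leaned towards short transcripts: across 13467 genes, the correlation between log2 exon length and how far a gene lay above its 18-library mean was -0.197 to -0.0945, against -0.0518 to 0.137 in the other 14. Calls of members that change without these 4 libraries are given with the gene concerned.

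Over the 3 lines, 4 target genes rose with both treatments, 3 more rose with TGFb, and of the coactivator genes Yap1 fell slightly with ionomycin. With ionomycin, 4 of the 10 genes were higher than with DMSO (Nt5e, Cyr61, Ctgf and Ankrd1), against 17.2% of all tested genes, and 1 was lower (Yap1), against 16.1% (edgeR quasi-likelihood test, Benjamini-Hochberg adjusted p under 0.05). The median log2 fold change of the 10 genes was 0.22, and that of all tested genes was -0.03. With TGFb, 7 were higher (the same 4 with Axl, Amotl2 and Lats2), against 24.3% of all tested genes. None was lower with TGFb in edgeR, in DESeq2 or in limma-voom, or at an unadjusted p under 0.05 in edgeR, where the count was also 0; over all tested genes 26.5% were lower. The median of the 10 was 0.50, and of all tested genes -0.00. Set directly against TGFb, ionomycin left 7 genes lower (Ctgf, Cyr61, Ankrd1, Nt5e, Axl, Lats2 and Yap1), against 31.9%, and 1 higher (Tead1), against 31.0%. Both contrasts with DMSO use the same 6 DMSO libraries, so their effects are given side by side and not as support for each other. In these cultures a lower level in each cell and fewer cells that express a gene cannot be told apart.

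**Figure D1:**
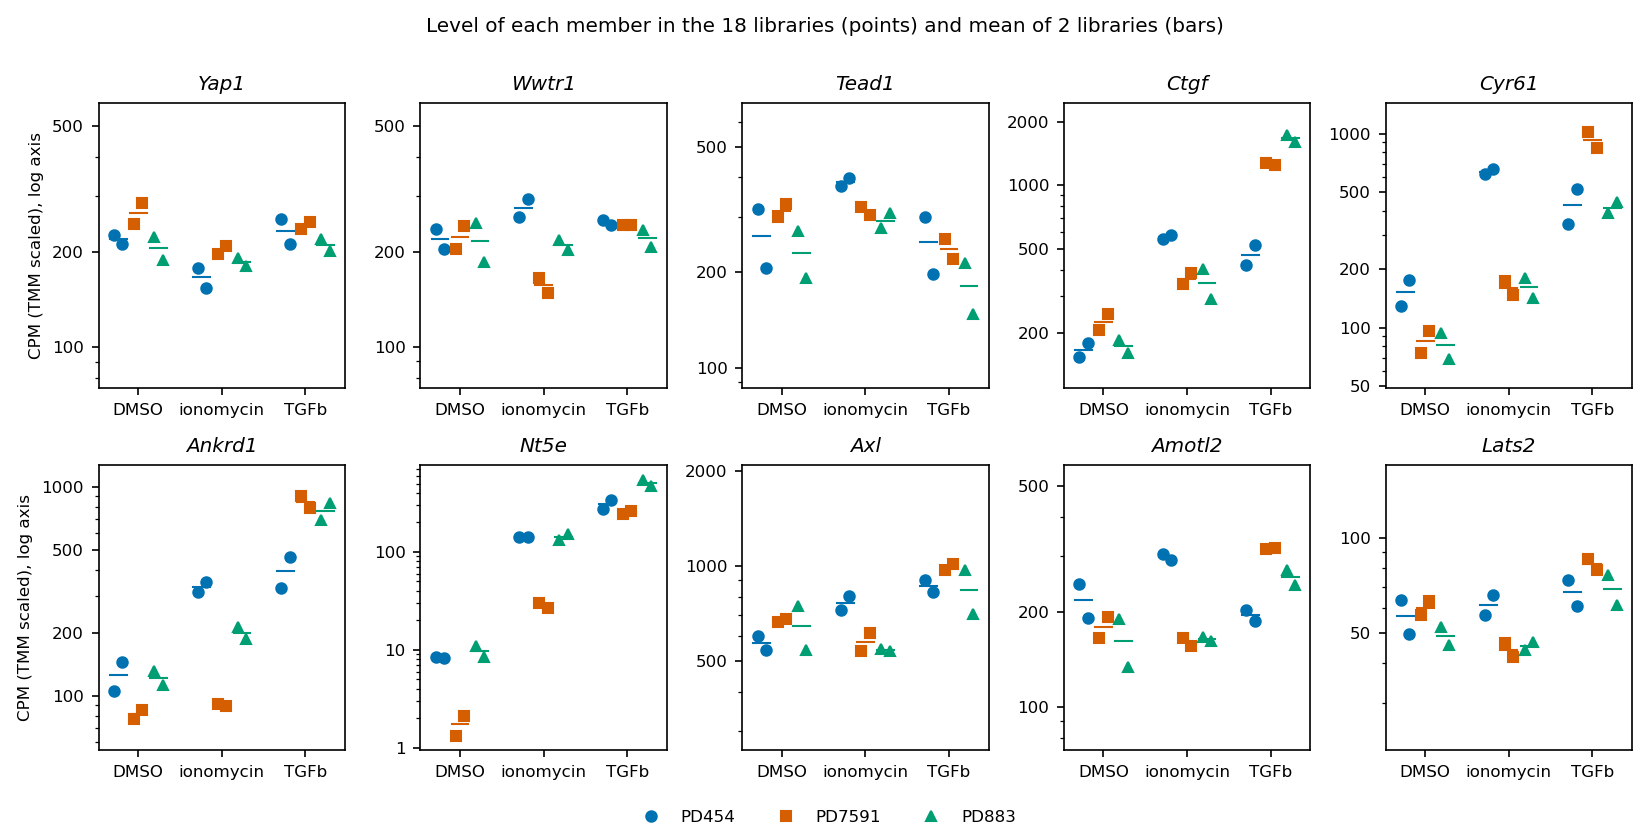
CPM of each of the 10 genes (log axis) by treatment, with 1 point for each of the 18 libraries, colour and shape for the line, and a bar at the mean of the 2 libraries of a group. Nt5e lies at 1.33 to 10.9 CPM in the DMSO libraries, at 26.6 to 154 after ionomycin and at 241 to 548 after TGFb, while Yap1 and Wwtr1 stay between 149 and 295 CPM in all libraries.

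The coactivator genes changed little. Yap1 (chromosome 9, 7931999 to 8004596, minus strand, mm10) encodes the founding coactivator of the pathway. Its level was 189 to 285 CPM with DMSO (median 225), 154 to 209 under ionomycin (median 186) and 202 to 254 with TGFb (median 228). The ionomycin libraries lay low, but their range overlapped that of DMSO. Over the 3 lines Yap1 fell with ionomycin, by a log2 fold change of -0.31 ± 0.09 (adjusted p = 0.0115), and with TGFb the log2 difference was -0.00 ± 0.09 (adjusted p = 0.986). The fall had the same sign in each line (-0.40 in PD454, -0.38 in PD7591 and -0.15 in PD883) and passed within no line alone in the main test. It did pass within PD454 and PD7591 with library totals (adjusted p = 0.0166 and 0.0261) and without the 4 libraries that leaned towards short transcripts (0.0474 and 0.0220). Over the 3 lines it was not called without PD454 (adjusted p = 0.0832), without PD7591 (0.137), with no line term (0.0561) or with the duplicates summed (0.158). Against TGFb, Yap1 was lower with ionomycin by 0.31 ± 0.09 (adjusted p = 0.00540), a call lost without PD454 (0.105) and with summed duplicates (0.0919).

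Wwtr1 (chromosome 3, 57455649 to 57575910, minus strand), the gene for TAZ, the paralogue of YAP, stood at 186 to 247 CPM with DMSO, 149 to 295 under ionomycin and 207 to 253 with TGFb. Neither treatment passed the test over the 3 lines: the log2 difference from DMSO was -0.06 ± 0.13 with ionomycin (adjusted p = 0.736) and 0.11 ± 0.13 with TGFb (adjusted p = 0.496). The spread with ionomycin was between the lines. The 2 PD454 libraries read 257 and 295 CPM and the 2 PD7591 libraries 165 and 149, so these 4 libraries held both ends of the range. Within PD7591 Wwtr1 was lower with ionomycin by 0.51 ± 0.16 (adjusted p = 0.0355), and within PD454 the difference was 0.33 ± 0.16 (adjusted p = 0.147). The test that the ionomycin effect differed between lines gave an adjusted p of 0.0995 for Wwtr1, and the call within PD7591 was lost without any 1 library of that line (0.0507 to 0.232) and with no low-count filter (0.0509). Line dependence of the difference between ionomycin and TGFb was not called for Wwtr1, but it was without the 4 libraries that leaned towards short transcripts (0.0317), with DESeq2 (0.0189) and without DMSO 7 (0.0387) or DMSO 8 (0.0375) of PD883.

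Tead1 (chromosome 7, 112679318 to 112906807, plus strand) encodes a TEAD factor, through which YAP and TAZ reach DNA. Its level was 192 to 329 CPM with DMSO (median 284), 276 to 399 under ionomycin (median 315) and 148 to 299.9 with TGFb (median 218). Ionomycin and TGFb libraries overlapped in 1 place: TGFb 17 of PD454 lay above ionomycin 9 of PD883. Tead1 was the only gene of the 10 that was higher with ionomycin than with TGFb over the 3 lines, by 0.58 ± 0.14 (adjusted p = 0.00168), a call that held in all 31 alternatives refitted. Against DMSO neither treatment passed the test (ionomycin 0.30 ± 0.14, adjusted p = 0.109; TGFb -0.28 ± 0.14, adjusted p = 0.110). Tead1 has the longest exon sequence of the 10 genes, 13570 bases, and each library that leaned towards short transcripts read lower than its duplicate: 206 against 316 CPM, 192 against 270.5, 198 against 299.9 and 148 against 215. Without these 4 libraries the TGFb effect was -0.29 and passed (adjusted p = 0.0218), and within PD7591 both the TGFb effect (-0.39, adjusted p = 0.0116) and the difference of ionomycin from TGFb (0.39, adjusted p = 0.0107) then passed. It also passed without DMSO 14 of PD454 alone (-0.36, adjusted p = 0.0290) and without the line PD454 (-0.38, adjusted p = 0.0490).

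The genes of the CCN family of matricellular proteins, which are secreted and bind integrins and matrix, are the most used readouts of YAP and TAZ, and both rose with each treatment. Ctgf (Ccn2; chromosome 10, 24595442 to 24598683, plus strand) read 155 and 179.6 CPM in the DMSO libraries of PD454, 208 and 246 in those of PD7591 and 186 and 161 in those of PD883. With ionomycin the values were 557 and 583 in PD454, 341 and 384 in PD7591 and 400.5 and 291 in PD883. With TGFb they were 420.0 and 521 in PD454, 1277 and 1252 in PD7591 and 1741 and 1601 in PD883. Every ionomycin and TGFb library thus lay above every DMSO library, and in PD454 alone the ionomycin libraries lay above the TGFb libraries. Over the 3 lines Ctgf rose by 1.22 ± 0.29 with ionomycin (adjusted p = 0.00347) and by 2.53 ± 0.30 with TGFb (adjusted p = 1.31e-06), and ionomycin stood 1.32 below TGFb on the log2 scale (-1.32 ± 0.30, adjusted p = 0.000877). The last call was lost without PD883 (-0.76, adjusted p = 0.0570) and with summed duplicates (0.0518), and the rise with ionomycin was lost only with summed duplicates (0.121).

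Cyr61 (Ccn1; chromosome 3, 145646976 to 145649981, minus strand) had DMSO levels of 129.8 and 175 CPM in PD454, 74.1 and 95.8 in PD7591 and 93.7 and 68.8 in PD883. With ionomycin it read 616 and 657 in PD454, 173 and 147 in PD7591 and 181 and 143 in PD883, and with TGFb 342 and 517, 1018 and 841, and 388 and 443 in the same order of lines. PD454 was therefore the highest line with DMSO and with ionomycin, and PD7591 the highest with TGFb. The ionomycin libraries overlapped the DMSO libraries only because DMSO 14 of PD454 (175) lay above ionomycin libraries of the other lines, and within each line they did not overlap. Over the 3 lines Cyr61 rose by 1.42 ± 0.34 with ionomycin (adjusted p = 0.00349; 0.114 with summed duplicates) and by 2.59 ± 0.35 with TGFb (adjusted p = 6.68e-06). Cyr61 differed between the lines with DMSO alone (adjusted p = 0.00669), a call lost without DMSO 14 of PD454 (0.0972). The comparison of ionomycin with TGFb (-1.16 ± 0.35, adjusted p = 0.00763) rested on the lines: it was -0.37 and not called without PD7591 (adjusted p = 0.355), and not called without PD883 (0.0817), with no line term (0.0863) or with summed duplicates (0.108).

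Ankrd1 (chromosome 19, 36111961 to 36120099, minus strand) encodes a nuclear and sarcomeric ankyrin repeat protein best known from muscle, and in epithelial cells it is a common YAP reporter. With DMSO it read 106 and 146 CPM in PD454, 77.5 and 85.8 in PD7591 and 131 and 113 in PD883. With ionomycin it read 314 and 351 in PD454, 91.8 and 89.9 in PD7591 and 214 and 187 in PD883. The TGFb libraries stood at 329.5 and 459.5 in PD454, 900.1 and 795 in PD7591 and 696 and 841 in PD883. All 6 TGFb libraries were above all 6 DMSO libraries, while the ionomycin libraries of PD7591 stayed within the range of the DMSO libraries. The rise with TGFb was 2.70 ± 0.32 over the 3 lines (adjusted p = 1.43e-06). The rise with ionomycin was 0.86 ± 0.30 (adjusted p = 0.0364): 1.40 in PD454 (adjusted p = 2.53e-04), 0.72 in PD883 (0.0144; 0.0851 without DMSO 8 and 0.0814 without ionomycin 9 of that line) and 0.15 in PD7591 (0.634). The call over the 3 lines was lost in 15 of 31 alternatives. It was lost without the line PD454 (adjusted p = 0.121) or PD883 (0.119), without the 4 libraries that leaned towards short transcripts (0.111), with limma-voom (0.0567), library totals (0.0539), no low-count filter (0.0978), no line term (0.0607) or summed duplicates (0.271), and without any of 7 single libraries: DMSO 13 and ionomycin 15 and 16 of PD454, DMSO 1 and 2 of PD7591, and DMSO 8 and ionomycin 9 of PD883 (0.0584 to 0.0934). Against TGFb, ionomycin was lower by 1.83 ± 0.32 (adjusted p = 8.23e-05).

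Nt5e (chromosome 9, 88327197 to 88372092, plus strand) encodes CD73, the surface enzyme that turns extracellular AMP into adenosine, and it had the largest effects of the 10 genes over the 3 lines. With DMSO it read 8.50 and 8.29 CPM in PD454, 1.33 and 2.14 in PD7591 and 10.9 and 8.45 in PD883, from 25 to 276 reads a library. With ionomycin it read 143 and 143 in PD454, 30.4 and 26.6 in PD7591 and 134 and 154 in PD883, and with TGFb 275 and 340.4, 241 and 262, and 548 and 467. The treatments did not overlap: the highest DMSO library lay below the lowest ionomycin library, and the highest ionomycin library below the lowest TGFb library. Nt5e rose by 3.97 ± 0.28 with ionomycin (adjusted p = 2.01e-08) and by 6.03 ± 0.31 with TGFb (adjusted p = 2.11e-11), and ionomycin stood at -2.07 ± 0.26 against TGFb (adjusted p = 1.45e-06). These 3 calls held in all 31 alternatives refitted. The ionomycin effect was 4.09 in PD454, 4.01 in PD7591 and 3.90 in PD883, and a difference between the lines was not detected (adjusted p = 0.860). With TGFb the effect was 5.20 in PD454, 7.16 in PD7591 and 5.72 in PD883, and it did depend on the line (adjusted p = 0.00269). PD7591 had the lowest Nt5e level with DMSO, and the lines differed there (adjusted p = 2.94e-06).

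Axl (chromosome 7, 25757273 to 25788705, minus strand) encodes a receptor tyrosine kinase for the ligand GAS6 that is known for its part in invasion and drug tolerance. It read 541 to 749 CPM with DMSO (median 633), 537 to 803 under ionomycin (median 581) and 704 to 1015 with TGFb (median 936). The TGFb libraries were high as a group and 5 of the 6 lay above all DMSO libraries. Axl rose by 0.51 ± 0.13 with TGFb (adjusted p = 0.00245), and its difference with ionomycin was -0.01 ± 0.13 (adjusted p = 0.958). Ionomycin stood 0.52 below TGFb (-0.52 ± 0.13, adjusted p = 0.00158), which was not called without PD7591 (-0.38, adjusted p = 0.0806). Without the 4 libraries that leaned towards short transcripts, the ionomycin effect on Axl depended on the line (adjusted p = 0.0291) and was -0.47 in PD883 (adjusted p = 0.0181).

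Amotl2 and Lats2 are targets that feed back on the pathway: angiomotin-like 2 holds YAP at cell junctions, and LATS2 is a kinase that phosphorylates YAP and TAZ. Amotl2 (chromosome 9, 102716672 to 102733418, plus strand) read 134 to 244 CPM with DMSO, 156 to 305 under ionomycin and 188 to 318 with TGFb. Its order depended on the line. In PD454 the values were 305 and 291 with ionomycin against 203 and 188 with TGFb, while in PD7591 they were 165 and 156 against 317 and 318. Over the 3 lines Amotl2 rose by 0.50 ± 0.19 with TGFb (adjusted p = 0.0323), with effects of -0.15 in PD454 (adjusted p = 0.525), 0.83 in PD7591 (0.00128) and 0.67 in PD883 (0.00532; 0.0726 without DMSO 8 of that line). The call over the 3 lines was lost without PD7591 (0.31, adjusted p = 0.311) or PD883 (0.41, 0.192), with no low-count filter (0.0530), with no line term (0.0810), with summed duplicates (0.166), and without any of 6 single libraries: DMSO 1 and TGFb 5 and 6 of PD7591, and DMSO 8 and TGFb 11 and 12 of PD883 (0.0528 to 0.0707). With ionomycin the difference over the 3 lines was 0.14 ± 0.18 (adjusted p = 0.592). Against TGFb, ionomycin stood at -0.36 ± 0.19 (adjusted p = 0.102), and this was called in 7 of 31 alternatives: without PD454 (-0.81, adjusted p = 1.25e-04), without ionomycin 15 (0.0467), TGFb 17 (0.0333) or TGFb 18 (0.0197) of PD454, without the 4 libraries that leaned towards short transcripts (-0.54, 0.0248), with library totals (0.0497) and with 1 mean per group (0.00582). The lines were not called different with DMSO, but they were without those 4 libraries (0.0280) and without DMSO 7 of PD883 (0.0233).

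Lats2 (chromosome 14, 57689662 to 57758388, minus strand) read 45.9 to 63.3 CPM with DMSO, 42.1 to 65.8 under ionomycin and 60.7 to 85.8 with TGFb. It rose by 0.41 ± 0.12 with TGFb (adjusted p = 0.00795), by 0.25 in PD454 (adjusted p = 0.271), 0.46 in PD7591 (0.0369) and 0.49 in PD883 (0.0283). The PD7591 call was lost without any 1 of its 4 DMSO and TGFb libraries (0.0649 to 0.151), and the PD883 call without DMSO 8 (0.152) or TGFb 11 (0.195). The call over 3 lines was lost without PD7591 (0.0535), without PD883 (0.0666) and with summed duplicates (0.0834). With ionomycin the difference was -0.13 ± 0.12 (adjusted p = 0.408); within PD7591 it was -0.44 (0.0787) and passed with library totals (0.0341) or without the 4 libraries that leaned towards short transcripts (0.0169). Against TGFb ionomycin was lower by 0.54 ± 0.12 (adjusted p = 0.000702; 0.0535 without PD7591).

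The 3 lines did not share 1 order of the treatments. In PD454, ionomycin and TGFb were not called different for the CCN genes and Ankrd1: the log2 difference of ionomycin from TGFb was 0.28 ± 0.17 for Ctgf (adjusted p = 0.209), 0.57 ± 0.23 for Cyr61 (0.0569) and -0.25 ± 0.19 for Ankrd1 (0.302). Cyr61 lay close to the threshold and was called higher with ionomycin in 8 alternatives. These were without TGFb 18 of PD454 (0.88, adjusted p = 0.0201), without the 4 libraries that leaned towards short transcripts (0.89, 0.00292), with RLE factors (0.0457), with no low-count filter (0.00896), and without DMSO 13 or 14 of PD454 or DMSO 7 or 8 of PD883 (0.0400 to 0.0485). For Amotl2 ionomycin was higher there, by 0.61 ± 0.17 (adjusted p = 0.00863; 0.0696 without TGFb 18 of PD454). In PD7591 TGFb was far above ionomycin, with differences of -1.80 for Ctgf, -2.54 for Cyr61, -3.22 for Ankrd1 and -0.98 for Amotl2, and in PD883 they were -2.27, -1.36, -1.94 and -0.65, each with an adjusted p of 0.00496 or less. In PD454, 2 of the 10 genes were called higher with ionomycin than with TGFb (Tead1 and Amotl2), against 22.2% of all tested genes. There 2 were called lower (Yap1 and Nt5e), against 22.7%. Tead1 lay close to the threshold (adjusted p = 0.0462). The Tead1 effect went from 0.64 to 0.35 without TGFb 18 of PD454. That of Yap1 went from -0.49 to -0.33 without TGFb 17 and to -0.36 without ionomycin 16. Neither call held in these fits. The Tead1 call also did not hold without ionomycin 15 or 16 of PD454, or without some single libraries of PD7591 or PD883. In PD7591 8 were lower and 0 higher (20.6% and 24.1% of all tested genes), and in PD883 7 were lower and 1 higher (24.5% and 24.8%). Some PD883 calls did not hold with 1 library of that line left out. Axl went from -0.62 to -0.36 and Lats2 from -0.60 to -0.42 without TGFb 11, and Tead1 from 0.69 to 0.46 without TGFb 12. With ionomycin against DMSO, 4 were higher and 0 lower in PD454 (11.7% and 9.34% of all tested genes), 3 higher and 1 lower in PD7591 (11.2% and 7.41%), and 4 higher and 0 lower in PD883 (11.6% and 10.9%). Of the 3 in PD7591, Ctgf went from 0.68 to 0.56 and Cyr61 from 0.91 to 0.73 without DMSO 1 of that line. Ctgf was 0.59 without ionomycin 4 and Cyr61 0.78 without ionomycin 3 of PD7591. In PD883, Cyr61 went from 0.99 to 0.81 without DMSO 8 and to 0.84 without ionomycin 9. The calls of Ctgf and Cyr61 did not hold in these fits, which leave 1 library in a group. With TGFb against DMSO, 5 were higher in PD454 (14.8%), 7 in PD7591 (17.7%) and 6 in PD883 (18.4%), and 0 were lower in each line, also at an unadjusted p under 0.05 (16.1%, 20.1% and 20.0% of all tested genes were called lower). Among these, the Axl call in PD454 did not hold without DMSO 14 (0.54) or TGFb 17 (0.55) of that line. The Axl call in PD7591 did not hold without any 1 of its 4 DMSO and TGFb libraries (0.57 to 0.63).

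A joint test asked whether an effect differed between the lines. For TGFb against DMSO it passed for 5 of the 10 genes (Ctgf, Nt5e, Ankrd1, Cyr61 and Amotl2), against 5.26% of all tested genes. The effects on Ctgf were 1.49 ± 0.18 in PD454, 2.48 ± 0.18 in PD7591 and 3.27 ± 0.19 in PD883; on Cyr61 they were 1.49 ± 0.23, 3.45 ± 0.25 and 2.36 ± 0.24, and on Ankrd1 1.65 ± 0.19, 3.38 ± 0.21 and 2.65 ± 0.20 in the same order. PD454 had the smallest TGFb effect on each of these 5 genes. The Amotl2 call (adjusted p = 0.0406) was lost without any of 14 single libraries (up to 0.123) and with RLE factors (0.0514). For ionomycin against DMSO the edgeR joint test called 0 of the 10 genes, against 2.59% of all tested genes. At an unadjusted p under 0.05 it marked 5 genes, Ankrd1 (adjusted p = 0.0501) and Ctgf (0.0549) closest to the threshold, and DESeq2 called 4 and limma-voom 2. Without the 4 libraries that leaned towards short transcripts it called Ankrd1 (0.00161), Cyr61 (0.00644), Ctgf (0.0145) and Axl. The ionomycin effects on Ctgf were 1.77 ± 0.18 in PD454, 0.68 ± 0.17 in PD7591 and 0.99 ± 0.17 in PD883, and those on Cyr61 were 2.06 ± 0.24, 0.91 ± 0.23 and 0.99 ± 0.23. Whether the ionomycin effect on these genes depends on the line thus differed between tools and settings. The share of all tested genes is given only for the adjusted edgeR test on all 18 libraries (2.59%). The counts at an unadjusted p and with other tools or settings therefore have no share beside them. For ionomycin against TGFb, a test chosen after the values were seen, 5 genes depended on the line (Ankrd1, Ctgf, Cyr61, Nt5e and Amotl2), against 8.40% of all tested genes. With DMSO alone 3 genes differed between the lines (Nt5e, Cyr61 and Ankrd1), against 47.9% of all tested genes; the Ankrd1 call was lost without DMSO 1 (adjusted p = 0.172) or DMSO 2 (0.0816) of PD7591.

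**Figure D2:**
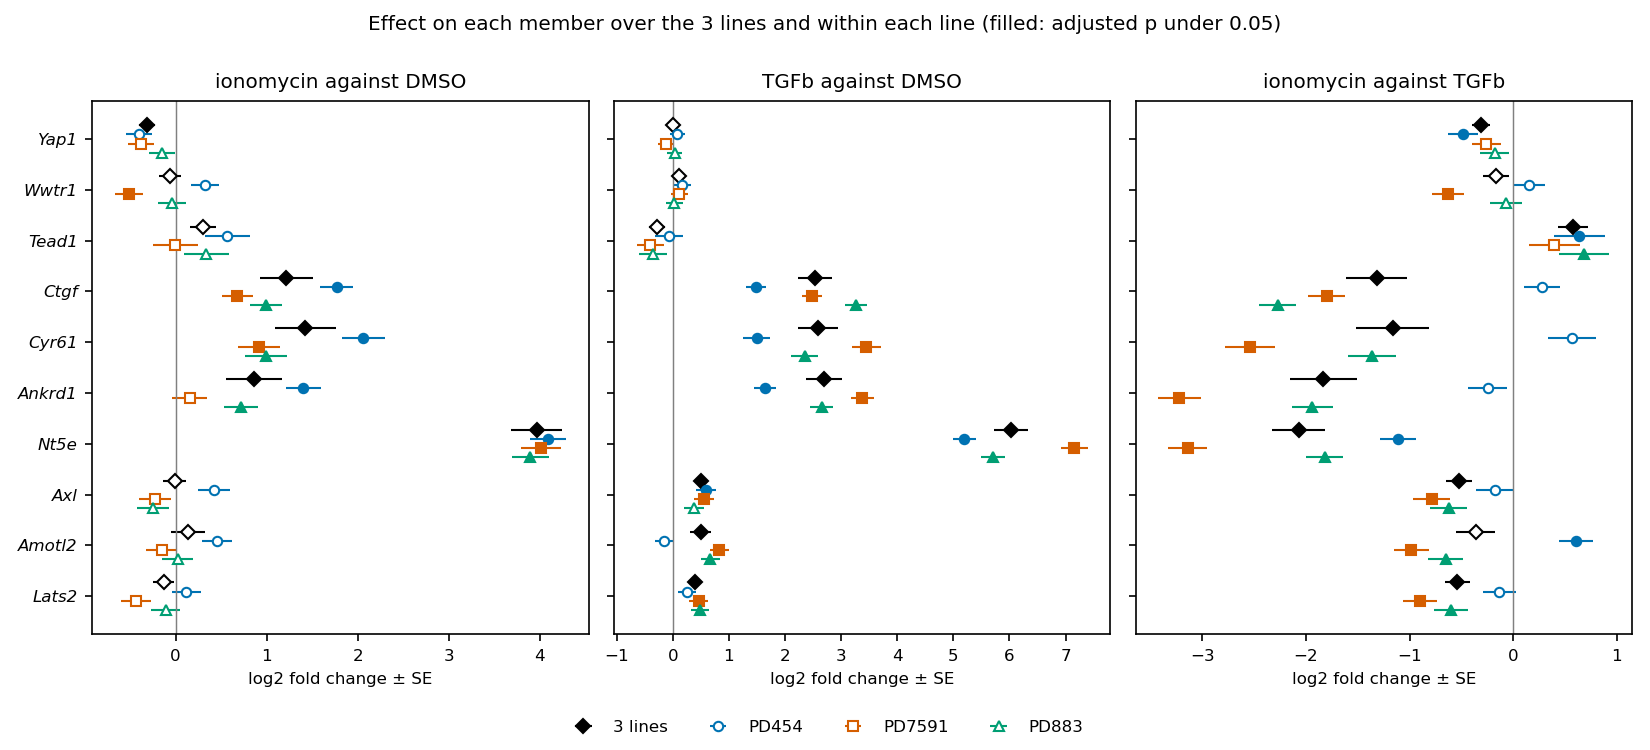
Log2 fold change ± SE of each gene (rows) for ionomycin against DMSO, TGFb against DMSO and ionomycin against TGFb, over the 3 lines (black diamonds) and within each line (coloured), filled where the adjusted p is under 0.05. In the panel of ionomycin against TGFb the PD454 points of Ctgf (0.28), Cyr61 (0.57) and Ankrd1 (-0.25) are not filled, while those of PD7591 lie at -1.80 to -3.22.

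Counted without a model, all 6 ionomycin libraries lay above all 6 DMSO libraries for 2 of the 10 genes (Ctgf and Nt5e), against 4.54% of all tested genes, and below them for 0, against 2.69%. The TGFb libraries all lay above the DMSO libraries for 4 genes (Ctgf, Cyr61, Ankrd1 and Nt5e), against 8.21%, and all below for 0, against 9.41%. Nt5e was the 1 gene of the 10 with all ionomycin libraries below all TGFb libraries, against 12.3%, and 0 had them all above, against 14.7%.

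Per kilobase of exon, the order of the members changed with treatment. With DMSO, Axl was highest at 125 ± 10.4 CPM per kilobase (mean ± SD of 3 line means), followed by Ctgf at 66.1 ± 11.4, Cyr61 at 52.6 ± 19.9, Wwtr1 at 46.0 ± 0.761 and Ankrd1 at 38.1 ± 8.48. Below them came Amotl2 at 29.6 ± 4.55, Yap1 at 24.9 ± 3.37, Tead1 at 19.8 ± 3.09, Lats2 at 7.91 ± 0.798 and Nt5e at 0.767 ± 0.495. Among these, Ctgf and Cyr61, Cyr61 and Wwtr1, Wwtr1 and Ankrd1, Ankrd1 and Amotl2, Amotl2 and Yap1, and Yap1 and Tead1 are neighbours whose ranges over the 6 libraries overlapped. With TGFb, Ctgf (397 ± 213), Cyr61 (293 ± 145) and Ankrd1 (232 ± 83.9) stood above Axl (178 ± 16.3), though the ranges of these 4 genes overlapped, and Nt5e reached 41.3 ± 15.6, above the mean of Yap1 (24.7 ± 1.82). With ionomycin Cyr61 (158 ± 136), Ctgf (149 ± 43.6) and Axl (125 ± 23.9) were the 3 highest and their ranges overlapped. Wwtr1 was above Yap1 in all treatments, at 44.9 against 20.0 with ionomycin and 49.6 against 24.7 with TGFb.

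**Figure D3:**
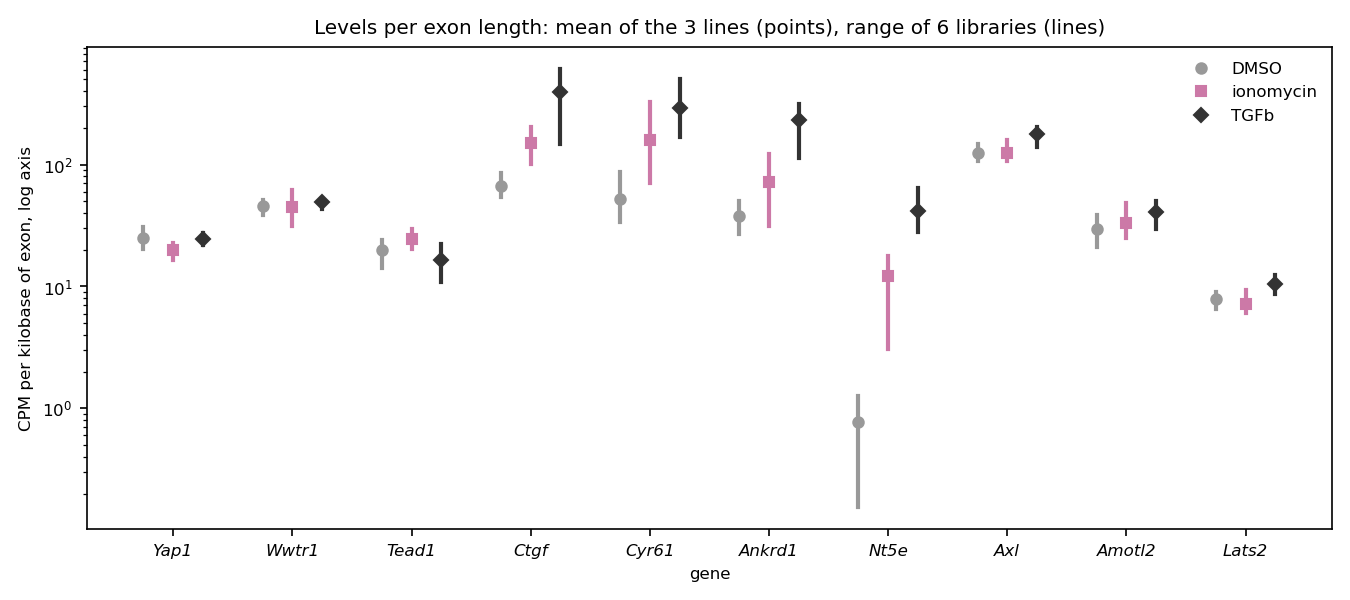
Level of each gene in CPM per kilobase of GENCODE M21 exon (log axis) for DMSO, ionomycin and TGFb, with points at the mean of the 3 lines and lines over the range of the 6 libraries. Nt5e stands at 0.767 in DMSO, 12.2 in ionomycin and 41.3 in TGFb, and Axl stays between 107 and 202 in all libraries.

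The rest of the pathway was read from lists of genes. Of the other TEAD genes and the VGLL genes, which encode other TEAD cofactors, 5 of 7 were tested. With TGFb 4 were higher and 1 lower, against 24.3% and 26.5% of all tested genes. With ionomycin 1 was higher and 2 lower, against 17.2% and 16.1%. Tead2 went from 21.5 to 33.0 CPM with DMSO to 145 to 229 with TGFb, a rise of 2.89 ± 0.13 (adjusted p = 2.73e-12), and fell by 0.57 with ionomycin (adjusted p = 0.00160). Tead4 ran the other way, from 16.3 to 49.3 CPM with DMSO to 3.91 to 11.1 with TGFb, with a log2 fold change of -2.08 (adjusted p = 1.95e-10), and it rose by 0.50 ± 0.12 with ionomycin (adjusted p = 0.00374). For both genes the TGFb libraries did not overlap the DMSO libraries. Tead3 rose by 0.73 ± 0.11 with TGFb (adjusted p = 2.28e-05), and Vgll4 fell by 0.43 with ionomycin (adjusted p = 0.0109). The ionomycin calls of Tead2, Vgll4 and Tead4 were lost with no line term (0.0629, 0.158 and 0.286) and with summed duplicates (0.0539, 0.124 and 0.0530). They were also lost without PD7591 for Tead2 (0.0630) and Vgll4 (0.170), without PD883 for Vgll4 (0.0956) and without PD454 for Tead4 (0.0510). The median of the 5 genes was 0.73 with TGFb and -0.09 with ionomycin, against -0.00 and -0.03 over all tested genes.

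Upstream of YAP, 23 of 24 Hippo pathway genes were tested. With TGFb 8 were higher and 6 lower, against 24.3% and 26.5% of all tested genes. With ionomycin 1 was higher and 4 lower, against 17.2% and 16.1%. The medians (0.08 with TGFb and 0.01 with ionomycin) were near those of all tested genes. Frmd6, a FERM domain protein that acts upstream of the kinases, rose by 1.58 ± 0.14 with TGFb (adjusted p = 3.13e-08), from 35.2 to 62.0 CPM to 115 to 164. The LIM protein gene Wtip rose by 0.98 ± 0.14 (adjusted p = 9.95e-06; 0.273 with no line term). Wwc1, which encodes the scaffold KIBRA, went from 182 to 264 CPM with DMSO to 45.9 to 100.1 with TGFb, a log2 fold change of -1.80 (adjusted p = 5.56e-10), and Sav1, the scaffold of the MST kinases, fell by 0.76 (adjusted p = 4.90e-06). With ionomycin the kinase gene Stk38l rose by 0.50 ± 0.12 (adjusted p = 0.00278; 0.0547 without PD454), and Ajuba, a LIM protein that restrains LATS, fell by 0.55 (adjusted p = 2.10e-04). Map4k4 fell by 0.44 (adjusted p = 0.0266), a call lost without PD7591 (0.302), with no line term (0.0882), with summed duplicates (0.195), and without any of 6 single libraries: DMSO 1 and 2 and ionomycin 3 and 4 of PD7591 and ionomycin 15 and 16 of PD454 (0.0509 to 0.0810).

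The 15 other target genes were all tested. With ionomycin 4 were higher and 2 lower, against 17.2% and 16.1% of all tested genes. With TGFb 6 were higher and 1 lower, against 24.3% and 26.5%. The medians were 0.08 with ionomycin and -0.01 with TGFb. Gadd45a, a stress-induced growth arrest gene, rose by 2.37 ± 0.31 with ionomycin (adjusted p = 1.56e-05) and by 2.45 ± 0.31 with TGFb (adjusted p = 2.59e-06), from 7.73 to 20.2 CPM with DMSO to 26.5 to 156 and 51.6 to 84.8. Fjx1, the homologue of a fly kinase gene that acts on Fat and Dachsous, rose by 2.22 ± 0.24 with TGFb (adjusted p = 2.92e-07). The transcription factor gene Foxf2 fell by 0.83 with ionomycin (adjusted p = 1.89e-04; 0.317 with no line term), and F3, which encodes tissue factor, fell by 1.22 with TGFb (adjusted p = 0.00233; 0.0601 without PD883 and 0.0873 with summed duplicates). Dock5, an exchange factor for Rac, rose by 0.70 ± 0.18 with ionomycin (adjusted p = 0.00633). Igfbp3 fell by 0.64 with ionomycin (adjusted p = 0.0235), a call lost in 11 alternatives. It was lost without PD7591 (-0.25, adjusted p = 0.399), PD454 (0.118) or the 4 libraries that leaned towards short transcripts (0.0885), with no line term (0.181), summed duplicates (0.158) or no low-count filter (0.0570), and without DMSO 14 or ionomycin 15 of PD454 or DMSO 1, ionomycin 3 or ionomycin 4 of PD7591 (0.0528 to 0.0809). These further targets moved in both directions, and their medians lay near that of all tested genes.

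**Figure D4:**
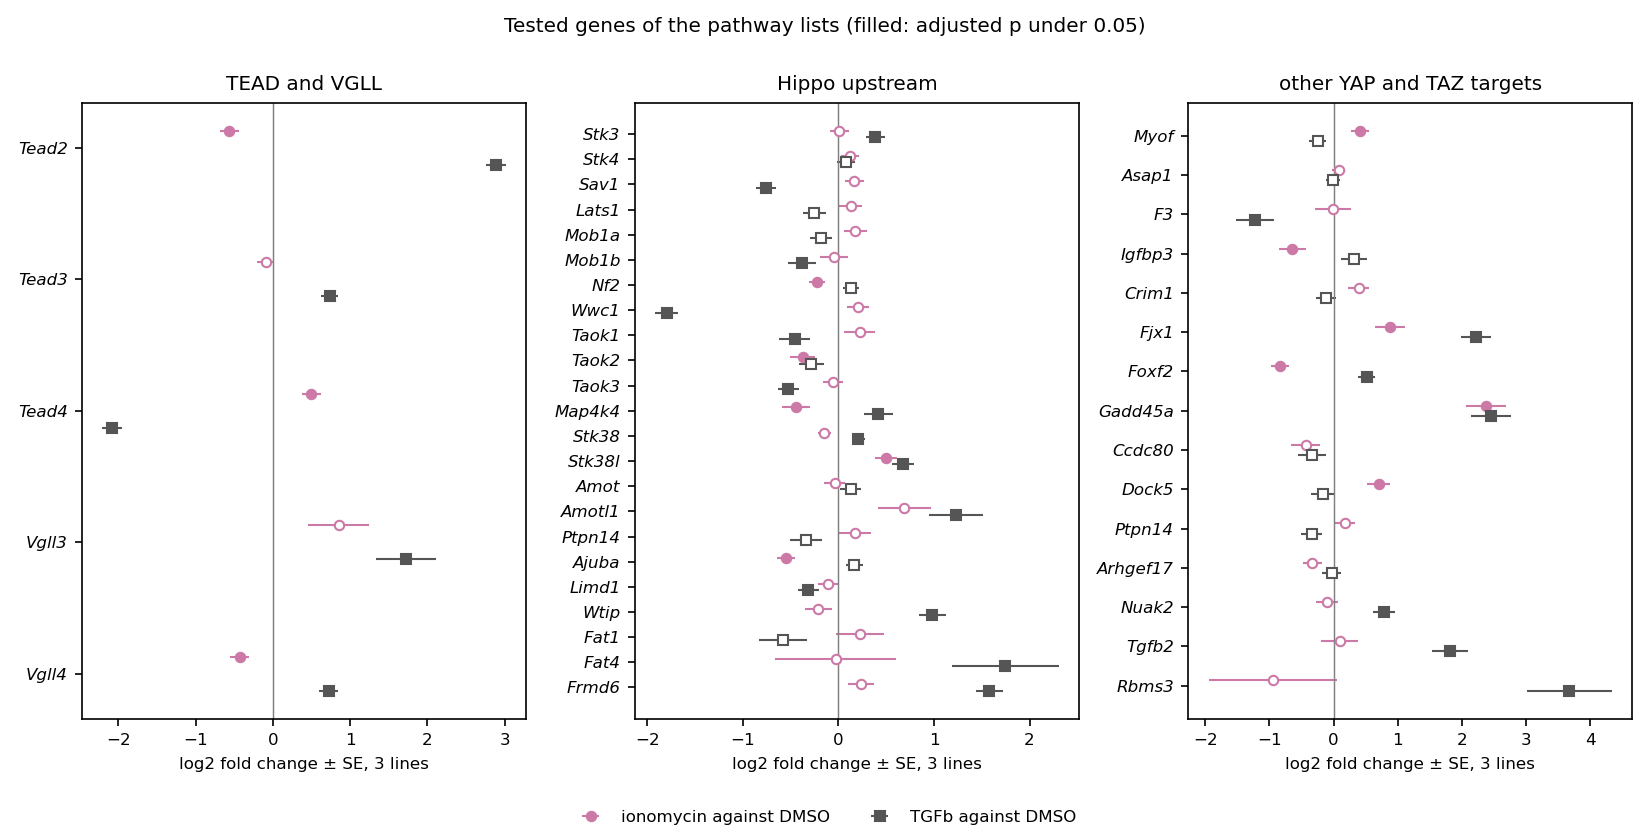
Log2 fold change ± SE over the 3 lines of the tested TEAD and VGLL genes (left), Hippo upstream genes (middle) and other target genes (right), for ionomycin against DMSO (circles) and TGFb against DMSO (squares), filled where the adjusted p is under 0.05. Tead2 (2.89) and Tead4 (-2.08) move to opposite sides with TGFb, and Gadd45a lies at 2.37 and 2.45.

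Relatives of the target genes were read from a list of 20, of which 14 were tested. With TGFb 6 were higher and 5 lower, against 24.3% and 26.5% of all tested genes. With ionomycin 4 were higher and 1 lower, against 17.2% and 16.1%. The medians of the tested relatives were -0.08 with TGFb and 0.45 with ionomycin. Wisp1 (Ccn4), of the same CCN family as Ctgf and Cyr61, went from 0.50 to 10.7 CPM with DMSO to 85.0 to 427 with TGFb, a rise of 5.97 ± 0.30 (adjusted p = 2.11e-11), and its difference with ionomycin was 0.44 ± 0.28 (adjusted p = 0.238). Nov (Ccn3), of the same family, went the other way with TGFb. All 6 of its TGFb libraries lay below all 6 DMSO libraries, against 9.41% of all tested genes. Tyro3, a receptor of the same family as Axl, rose by 1.38 ± 0.14 with TGFb (adjusted p = 1.76e-07). In the nucleoside diphosphohydrolase family, some of whose members make the AMP that CD73 uses, Entpd2 fell by 3.82 (adjusted p = 5.58e-10) and Entpd5 by 1.38 (adjusted p = 1.02e-09) with TGFb, and Entpd5 rose by 0.46 ± 0.09 with ionomycin (adjusted p = 0.00110; 0.182 with no line term). Adora2a, a receptor for the adenosine that CD73 makes, rose by 2.14 ± 0.30 with ionomycin (adjusted p = 3.69e-05), from 0.48 to 1.43 CPM to 0.97 to 7.85. Wisp2 was scarce, with 28 reads in all under DMSO and 6 under ionomycin, and its fall with ionomycin (adjusted p = 0.0312) was lost in 9 alternatives: without PD7591 (0.286) or PD883 (0.0621), with no line term (0.0991) or summed duplicates (0.152), and without DMSO 1, ionomycin 3 or ionomycin 4 of PD7591, ionomycin 16 of PD454 or ionomycin 10 of PD883 (0.0538 to 0.0827).

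The pattern over the 9 groups of line and treatment was described by the correlation of mean log2 CPM, with 9 points that share libraries and lines and no test. The CCN genes, Ankrd1 and Nt5e followed each other (r from 0.82 to 0.90 for the 6 pairs), and Axl followed Lats2 (r = 0.93). Such values were not particular to these pairs: Cyr61 and Amotl2 had r = 0.87, Ankrd1 and Axl 0.83, and Amotl2 and Lats2 0.82. Nt5e had lower values with Axl (0.58), Amotl2 (0.53) and Lats2 (0.43). Yap1 and Wwtr1 did not follow each other (r = -0.04), and Yap1 had r between -0.34 and -0.03 with Ctgf, Cyr61, Ankrd1 and Nt5e. Among all other tested genes, the closest to Nt5e were Tmem206 (r = 0.98) and Arl8a (0.97), to Ankrd1 Pla2g15 (0.98) and 4930402H24Rik (0.97), to Ctgf Dok1 (0.96) and Adamts5 (0.95), and to Cyr61 Cmah (0.97) and Dusp5 (0.95). For Axl they were Lif (0.96) and Dcaf12 (0.96), for Lats2 Synpr (0.97) and Snapc3 (0.96), and for Amotl2 Plk2 (0.91) and Rassf1 (0.87). For Yap1 they were Phf6 (0.97) and Hnrnpd (0.97), for Wwtr1 Spats2 (0.87) and Lrrfip1 (0.87), and for Tead1 Taok1 (0.97) and Dmxl1 (0.97). Each is the highest r among all the other tested genes, so high values can be found for any gene.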

How the data were processed

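RNA was sequenced from 18 libraries of 3 lines and 3 treatments. The authors deposited 1 table of raw read counts, with a row for each gene symbol and no normalization. Per the submitters' processing notes, the tools were CASAVA, Trimmomatic 0.32, STAR and featureCounts, with mm10 as the build. The sources used here do not give the settings, the strand mode or the annotation, so reads of overlapping antisense genes cannot be told apart. Of 24527 entries, 5059 were at 0 in all libraries.

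The software was edgeR 4.0.16, DESeq2 1.42.0 and limma 3.58.1 under R 4.3.3. Of all entries, filterByExpr (9 groups) retained 13827 for testing, and normalization used TMM. Pairs of treatments were tested by robust quasi-likelihood F tests in edgeR, with terms for line and treatment, Benjamini-Hochberg adjustment over all tested genes and a threshold of 0.05. Effects within lines and joint tests of line dependence used 1 mean per group, so they rest on the spread between duplicates. An SE is the absolute log2 fold change over the square root of F. Exon lengths are unions of GENCODE M21 exons, and promoter windows are from RefSeq. The test of TGFb against DMSO was checked on simulated counts for 13354 genes. Of 196 genes changed 2-fold, it called 165, each in the simulated direction, and it called 6 unchanged genes. In the simulation all lines had the same level of a gene and the same TGFb effect, and the spread was that between duplicates. The check therefore does not cover differences between lines, effects that depend on the line, or duplicates that are technical.

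The members and all lists were chosen with earlier results of these data known. Named were the 10 members; of each of 4 lists (TEAD and VGLL, Hippo upstream, other targets, families of the members) and each contrast, up to 2 higher and 2 lower genes with the smallest adjusted p; for each member the 2 other genes with the highest r; and 4 genes that check the labels. The text gives part of the named list genes, with most of their values against DMSO. Marker lists covered epithelial and ductal, fibroblast, endothelial, immune, acinar and endocrine cells. Alternatives were DESeq2, limma-voom, RLE factors, scaling by library totals, testing all genes with no low-count filter, a model without line, a model with 1 mean per group, summing duplicates, fitting only the 2 treatments compared, a log2 fold change of at least 1, and leaving out single libraries, single lines, or the 4 libraries rich in short transcripts. The test of line dependence for ionomycin against TGFb, and the alternatives for the lists and within lines, were chosen after seeing the data.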

Additional observations from a re-analysis of the deposited data

Results flagged for a closer look

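The flagged results are effects that differed between the 3 lines in a joint test (edgeR quasi-likelihood, Benjamini-Hochberg adjusted p over all tested genes). For TGFb against DMSO the adjusted p was 0.00249 for Ctgf, 0.00792 for Cyr61, 0.00520 for Ankrd1, 0.00269 for Nt5e and 0.0406 for Amotl2. In all 5 genes the effect was smallest in PD454, and for Amotl2 it was -0.15 there against 0.83 in PD7591 and 0.67 in PD883. The Amotl2 call was lost when any of 14 single libraries was left out (adjusted p up to 0.123) and with RLE factors (0.0514). For ionomycin against TGFb, a test chosen after the values were seen, the adjusted p was 6.18e-05 for Ctgf, 2.06e-04 for Cyr61, 5.73e-05 for Ankrd1, 6.31e-04 for Nt5e and 0.00188 for Amotl2. Those 5 calls held in all 24 alternatives refitted. All groups had 2 libraries, so no test for an outlying library within a group was made.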

How the results depend on the processing

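No call of a member over the 3 lines changed sign. No paired analysis was possible because the groups share no library numbers. Members higher with ionomycin than with DMSO (4) numbered 1 with summed duplicates, and members lower (1) numbered 0 with summed duplicates, with no line term, without line PD454, without line PD7591 and at a log2 fold change of at least 1. For TGFb against DMSO, members higher (7) numbered 4 at a log2 fold change of at least 1, and members lower (0) numbered 1 without the 4 libraries rich in short transcripts and without line PD454, and 0 to 1 with 1 library left out, Tead1 passing without DMSO 14 of PD454. For ionomycin against TGFb, members higher (1) numbered 0 at a log2 fold change of at least 1, and members lower (7) numbered 4 with summed duplicates, without line PD7591 and at that fold. Members whose ionomycin effect against DMSO depended on the line (0) numbered 2 with RLE factors, 3 with no low-count filter, 4 with DESeq2, 2 with limma-voom, 4 without the 4 libraries rich in short transcripts, and 0 to 3 with 1 library left out, 3 without DMSO 8 of PD883. Members that differed between lines with DMSO (3) numbered 5 with DESeq2. For these joint tests, shares over all tested genes are given only for the main test, so the counts at other settings have none beside them. Summing duplicates leaves 1 value per group and fewer degrees of freedom, and duplicates then no longer count as separate samples. The cause of these changes was not tested for any setting.

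Over all genes, ionomycin against DMSO gave 2372 higher and 2227 lower (51.6% higher), but 1936 and 2995 (39.3% higher) with library totals, which move the median of all genes from -0.03 to -0.12, and 1183 and 969 with no line term, and 1106 and 752 with summed duplicates. TGFb against DMSO gave 3356 and 3659, but 2193 and 2628 with no line term and 2116 and 2530 with summed duplicates. Library totals moved the median of ionomycin against TGFb from -0.04 to -0.11. Of 1980 recomputed effects of members within lines, 1883 kept their side of the threshold and direction, 49 lost and 24 gained a call, and 24 uncalled ones changed sign. With 2 libraries a group, a missed call does not show that levels were alike.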
